A study of Mus musculus with 15 samples.

Results

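The genes examined encode the trans-acting regulators of alternative splicing: the hnRNPs, the SR and Tra2 proteins, and the ESRP, PTB, RBFOX, Muscleblind, CELF, STAR, Hu, NOVA and TIA families. They were chosen by gene symbol alone. The rule took 56 genes, of 16572 gene symbols in the deposited tables of both datasets together. The first dataset held 55 of them among 13893 genes, and the second held all 56 among 15023. There were 19 hnRNPs, 12 SR and Tra2 proteins, 8 Muscleblind and CELF proteins, 4 Hu proteins, 3 PTB proteins, 3 STAR proteins, 2 RBFOX proteins, 2 NOVA proteins, 2 TIA proteins and 1 ESRP. Esrp1 was not analysed here.

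All 15 samples came from NMuMG, a mouse mammary gland epithelial cell line. In the second dataset, 2 samples of NMuMG cells, listed in the labels as wild type and untreated (the study's text calls its controls shSCR), were compared with 2 samples carrying an shRNA against PCBP1. Every line of the first dataset carried that shRNA, its controls included. These were 4 lines of wild-type genotype (the unaltered shPCBP1 line and CT clones 1 to 3, which had received Cas9 without gene-specific guide RNAs), 3 FAM3C KO clones (FAM3C -/-), 3 LIFR KO clones (LIFR -/-) and 1 FAM3C/LIFR double KO line. Each line of the first dataset was 1 clone or population with 1 RNA sample, and nothing in the labels says that the replicates of the second dataset came from separate cultures, so the p values measure the spread between these samples, which may be technical. The values are CPM (reads of a gene scaled to the size of its library), and the datasets were normalized apart, so no test was made between them. Low values put the depth at 53032111 to 56496537 reads per library in the second dataset and 16031859 to 46901675 in the first. Pcbp1 stood at 287 and 312 CPM in NMuMG and 14.1 and 14.2 CPM in shPCBP1. Fam3c was lower in every FAM3C KO clone (26.4 to 42.9 CPM) than in every shPCBP1 line (47.0 to 59.4 CPM), with an adjusted p of 0.232. Lifr transcript in the LIFR KO clones (14.6 to 34.9 CPM) overlapped with the shPCBP1 lines (25.8 to 40.2 CPM, adjusted p = 0.384). The guide pairs were chosen to cut a short stretch out of the coding sequence, which a count over the whole gene need not show, so these levels do not check the labels of the clones.

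Splicing regulators bind short motifs in the exons and introns of a pre-mRNA and decide, by where they bind, whether the spliceosome uses a nearby splice site. SR proteins mostly promote the use of the exon they bind, hnRNPs and PTB proteins often repress it, and RBFOX, NOVA, Muscleblind, CELF and STAR proteins can do either, depending on the side of the exon on which they sit. In epithelial cells the ESRPs keep epithelial isoforms of adhesion and signalling genes, and in epithelial-mesenchymal transition the balance shifts towards RBFOX2, QK and MBNL proteins. Many SR and hnRNP genes also hold poison exons, which let the proteins limit their own transcript level. PCBP1, the protein knocked down here, is itself a poly(C)-binding protein of the same wider class, with roles in splicing, RNA stability and translation. The files give the level of each gene, not of its isoforms, so what follows concerns how much transcript of each regulator was present and says nothing about which exons were used.

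Of the 6 genes that passed the test and changed by at least 1.5-fold after PCBP1 knockdown, Elavl2, Celf5, Hnrnpab, Nova1 and Tia1 have an entry in the RefSeq promoter table (GRCm38.p6), and Khdrbs3 has none. The 250 bases before the most upstream listed start are given because these are the promoters of the members past that fold. The windows lie at chr4:91399985-91400234 on the minus strand for Elavl2, chr10:81482700-81482949 on the minus strand for Celf5, chr11:51606882-51607131 on the minus strand for Hnrnpab, chr12:46818768-46819017 on the minus strand for Nova1 and chr6:86403969-86404218 on the plus strand for Tia1. Capitals mark CG dinucleotides, and each sequence runs 5′ to 3′ on the gene's strand.
Elavl2: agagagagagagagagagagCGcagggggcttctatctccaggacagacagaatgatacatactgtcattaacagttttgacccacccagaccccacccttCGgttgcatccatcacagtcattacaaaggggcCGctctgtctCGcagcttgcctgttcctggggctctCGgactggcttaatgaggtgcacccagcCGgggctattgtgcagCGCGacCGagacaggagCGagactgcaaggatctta
Celf5: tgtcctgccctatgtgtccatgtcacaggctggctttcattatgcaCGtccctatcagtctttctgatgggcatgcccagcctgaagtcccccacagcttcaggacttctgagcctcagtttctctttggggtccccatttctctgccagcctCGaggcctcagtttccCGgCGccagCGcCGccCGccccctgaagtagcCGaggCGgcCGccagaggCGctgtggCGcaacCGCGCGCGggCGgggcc
Hnrnpab: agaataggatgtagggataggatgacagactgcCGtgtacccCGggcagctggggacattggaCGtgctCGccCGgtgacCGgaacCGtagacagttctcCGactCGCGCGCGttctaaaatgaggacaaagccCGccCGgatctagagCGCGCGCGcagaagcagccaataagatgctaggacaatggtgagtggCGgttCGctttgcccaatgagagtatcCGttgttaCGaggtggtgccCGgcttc
Nova1: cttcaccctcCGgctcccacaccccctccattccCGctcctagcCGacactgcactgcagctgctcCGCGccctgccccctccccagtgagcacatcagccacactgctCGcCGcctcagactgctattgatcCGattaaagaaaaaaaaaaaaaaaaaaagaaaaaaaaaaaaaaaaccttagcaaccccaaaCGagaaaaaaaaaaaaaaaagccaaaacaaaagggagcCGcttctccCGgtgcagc
Tia1: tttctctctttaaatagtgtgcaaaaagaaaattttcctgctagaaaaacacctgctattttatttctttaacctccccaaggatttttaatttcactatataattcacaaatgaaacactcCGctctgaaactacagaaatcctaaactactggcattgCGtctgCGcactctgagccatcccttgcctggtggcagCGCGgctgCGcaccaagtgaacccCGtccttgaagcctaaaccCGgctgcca
The CG count was 10 in Elavl2, 17 in Celf5, 23 in Hnrnpab, 11 in Nova1 and 8 in Tia1. The 48 members with an entry had a median of 19.5 CG dinucleotides in this window (range 1 to 52), against 6.0 over all 27025 promoters in the table. At least 10 were present in 42 of the 48 members and in 38.2% of all promoters. The E-box CACCTG, the motif read by SNAI and ZEB proteins, was found on either strand in 8 members (Elavl3, Hnrnpf, Hnrnph3, Rbfox3, Srsf1, Srsf2, Srsf3 and Tia1) and in 17.1% of all promoters. The palindrome TTCNNNGAA, the motif read by STAT3, was found in 3 members (Hnrnpa2b1, Hnrnph1 and Mbnl1) and in 7.14% of all promoters. These matches describe the letters in the window and are not binding sites.

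The question of the second dataset was which genes differ after loss of PCBP1. Of the 56 members, 51 passed the filter of a mean of 0.5 CPM, and 43 of those passed an adjusted p of 0.07 (limma, fitted to log2(CPM + 0.1), where the change of low genes comes out too small), 21 higher and 22 lower in shPCBP1. This share (84.3%) lies close to the background, since 80.1% of all 11384 genes tested also passed (42.1% higher and 38.0% lower). The changes of most members were small. A change of at least 1.5-fold was reached by 6 of 51 members (11.8%), against 31.1% of all genes. The samples did not overlap between groups for 47 members, and for 89.0% of all genes. The median size of the log2 change was 0.28 over the members and 0.36 over all genes, and the median signed change was 0.02 for both. The transcripts of the members together summed to 4709.9 and 4803.9 CPM in NMuMG and 4743.5 and 4797.3 CPM in shPCBP1. In bulk RNA, a change in the share of cells that express a gene and a change in RNA per cell cannot be told apart.

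**Figure D1:**
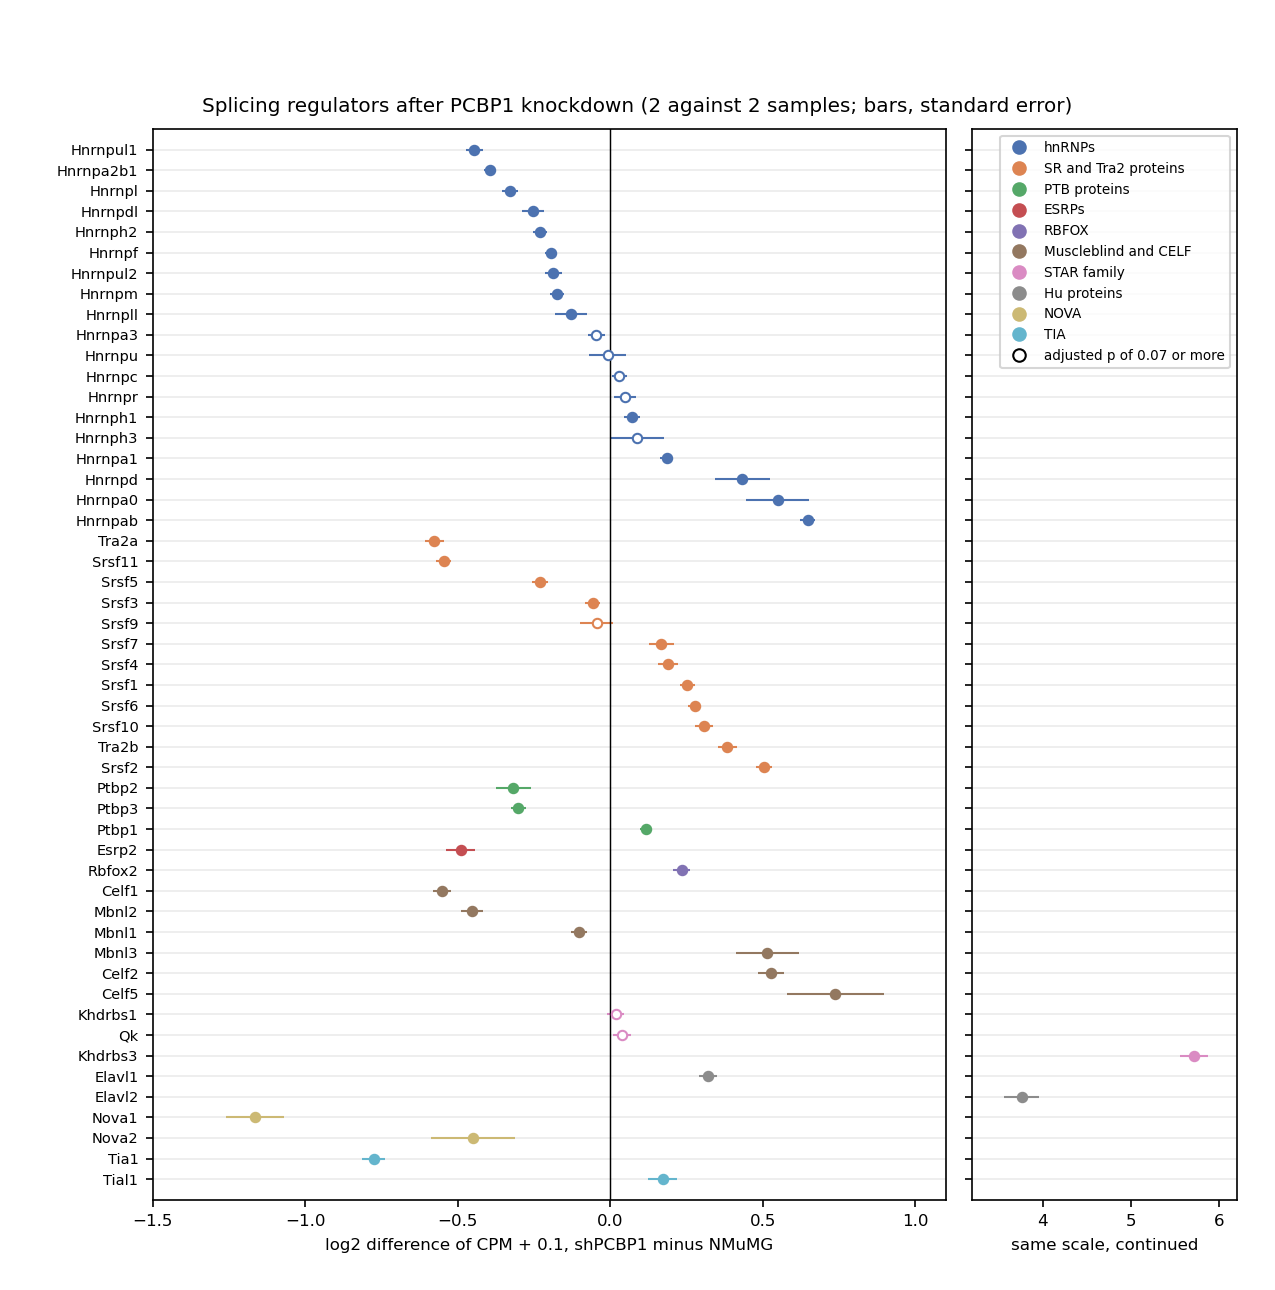
Log2 difference in CPM (shPCBP1 minus NMuMG, with standard error) for the 51 members tested, grouped by role; filled points passed an adjusted p of 0.07 and open points did not, and a second panel continues the axis for Khdrbs3 and Elavl2. Most members lie within 1.5-fold of no change, both directions occur in the larger families, and Khdrbs3 and Elavl2 stand far to the right.

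Khdrbs3 and Elavl2, both near or at 0 in control cells, were far higher in shPCBP1 cells. Khdrbs3 encodes SLM2 (T-STAR), a STAR protein known best from brain and testis. It stood at 0.0886 and 0.0567 CPM in NMuMG and at 9.61 and 8.35 CPM in shPCBP1. These values amount to 8 reads over both control libraries and 988 reads over both knockdown libraries, a ratio, scaled by library size, of 123 with a 95% counting interval of 62.2 to 286, which covers counting error only. The fitted log2 change was 5.72 (SE 0.16, adjusted p = 9.95e-11). The related Khdrbs1 (Sam68) and Qk (Quaking) did not pass the test. Khdrbs1 was at 69.4 and 72.1 CPM in NMuMG and 71.2 and 71.9 CPM in shPCBP1 (log2 0.02, adjusted p = 0.605), and Qk was at 63.7 and 62.6 CPM against 66.1 and 63.5 CPM (log2 0.04, adjusted p = 0.264). For both genes the groups overlapped. As a share of Khdrbs1 CPM in the same library, Khdrbs3 moved from 0.128% and 0.0786% to 13.5% and 11.6%.

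Elavl2 encodes HuB, a neuronal Hu protein that binds AU-rich RNA. It was listed at 0 in both NMuMG samples and at 1.18 and 1.33 CPM in shPCBP1, which correspond to 66 and 72 reads. Against the floor of 3 reads per control library (0.0531 and 0.0566 CPM), it was at least 22.9-fold higher in shPCBP1 (adjusted p = 1.38e-08). Elavl1 (HuR), the member of the family present in nearly all cells, rose from 50.3 and 49.6 CPM to 62.3 and 62.4 CPM (log2 0.32, SE 0.03, adjusted p = 1.25e-06). The shPCBP1 samples lay above the controls for both genes. The other neuronal Hu genes were below the filter, with Elavl4 at 0 and 1 reads in NMuMG and 13 and 8 in shPCBP1 and Elavl3 at 1 and 5 against 4 and 2. Rbfox3 was listed at 1 read in 1 control library and 0 in the others. Among markers of other cell types, the 3 neuronal markers in the table, of 6 listed, summed to 1.26 and 1.64 CPM in NMuMG and 1.92 and 2.24 CPM in shPCBP1. The 3 muscle markers in the table, of 6 listed, summed to at most 0.573 CPM in any library, the 5 immune markers to at most 3.09 CPM and the 3 endothelial markers to at most 0.341 CPM. The part of these cell types in the changes was not tested.

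**Figure D2:**
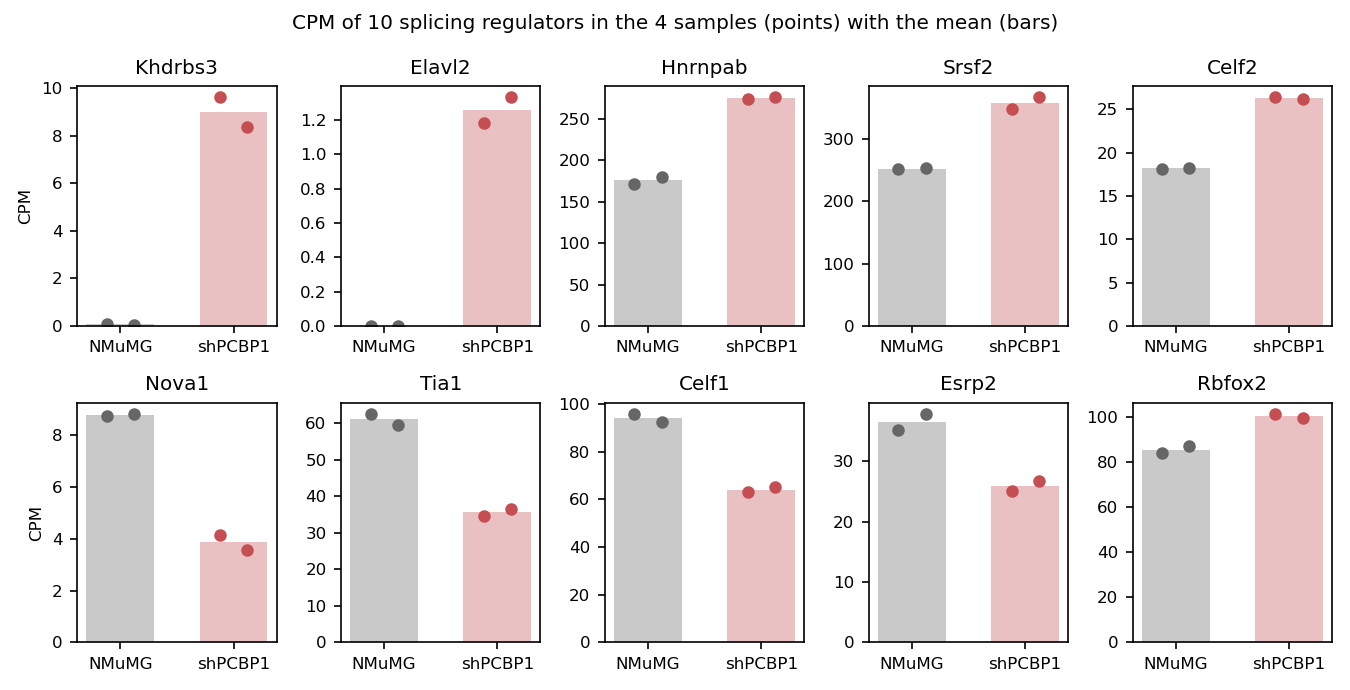
CPM of 10 members in each sample of the second dataset, with a bar at the mean of each pair and a separate linear axis for each gene. The samples of a pair lie close together for each gene, Khdrbs3, Elavl2, Hnrnpab, Srsf2, Celf2 and Rbfox2 are higher in shPCBP1, and Nova1, Tia1, Celf1 and Esrp2 are lower.

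Among the hnRNPs, 5 of 19 rose and 9 fell (42.1% and 38.0% of all genes). Their summed level was 2494 and 2580 CPM in NMuMG and 2463 and 2493 CPM in shPCBP1. Hnrnpab (hnRNP A/B, which packages nascent transcripts) showed the largest change of the family. It rose from 172 and 179.9 CPM to 275 and 276 CPM (log2 0.65, SE 0.02, adjusted p = 1.22e-09), with no overlap between groups. Hnrnpa0, a regulator of AU-rich mRNAs, was at 88.8 and 120.1 CPM in NMuMG and 144 and 158 CPM in shPCBP1 (log2 0.55, SE 0.10, adjusted p = 0.000491). The control samples of Hnrnpa0 lay far apart, and across the alternative fits its adjusted p ranged from 1.41e-15 to 0.0841. Hnrnpa1, a classic repressor of exon inclusion, rose slightly from 193 and 189.6 CPM to 218 and 217 CPM (log2 0.18, SE 0.02, adjusted p = 1.33e-05). Its partner Hnrnpa2b1 moved the opposite way, from 290.0 and 286 CPM to 219.7 and 218 CPM (log2 -0.39, SE 0.02, adjusted p = 1.52e-08). The largest fall among the hnRNPs was that of Hnrnpul1, from 102 and 107 CPM to 76.0 and 77.5 CPM (log2 -0.45, SE 0.03, adjusted p = 9.78e-08), followed by Hnrnpa2b1 and Hnrnpl (log2 -0.33). Hnrnpa3, Hnrnpc, Hnrnph3, Hnrnpr and Hnrnpu did not pass the test, with log2 differences from -0.05 to 0.09.

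Of 12 SR and Tra2 proteins, which bind exonic enhancers, 7 rose and 4 fell (42.1% and 38.0% of all genes). Their summed level was 1168 and 1173 CPM in NMuMG and 1268 and 1291 CPM in shPCBP1. Srsf2 (SC35) rose most. It stood at 252 and 253 CPM in NMuMG and 349 and 367 CPM in shPCBP1 (log2 0.50, SE 0.03, adjusted p = 1.21e-08). Srsf1 (SF2/ASF) rose from 119 and 122 CPM to 141 and 145 CPM (log2 0.25, SE 0.02, adjusted p = 3.13e-06), and Srsf4, Srsf6, Srsf7, Srsf10 and Tra2b also rose, by log2 0.17 to 0.38. Srsf11 fell from 98.9 and 100.6 CPM to 68.2 and 68.3 CPM (log2 -0.55, SE 0.03, adjusted p = 5.7e-09). The related activators Tra2a and Tra2b moved in opposite directions. Tra2a fell from 91.6 and 96.4 CPM to 61.9 and 64.05 CPM (log2 -0.58, SE 0.03, adjusted p = 2.44e-08), whereas Tra2b rose from 39.7 and 39.5 CPM to 51.1 and 52.3 CPM (log2 0.38, SE 0.03, adjusted p = 6.03e-07). Tra2a thus went from 230% and 244% of Tra2b CPM to 121% and 122%. Srsf5 (log2 -0.23) and Srsf3 (log2 -0.06) fell, and Srsf9 did not pass the test (log2 -0.05, adjusted p = 0.453).

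Nova1, a regulator of neuronal exons, showed the largest fall of any member. It went from 8.73 and 8.81 CPM in NMuMG to 4.16 and 3.57 CPM in shPCBP1 (log2 -1.17, SE 0.09, adjusted p = 5.6e-07). Nova2 was at 2.21 and 2.06 CPM against 1.40 and 1.68 CPM (log2 -0.45, SE 0.14, adjusted p = 0.0111), so both NOVA genes were lower, without overlap. Tia1 and Tial1 encode U-rich RNA-binding proteins that help U1 snRNP recognize weak 5′ splice sites and take part in stress granules. Tia1 fell from 62.5 and 59.5 CPM to 34.6 and 36.5 CPM (log2 -0.78, SE 0.04, adjusted p = 7.71e-09), while Tial1 rose from 22.6 and 24.1 CPM to 27.1 and 25.4 CPM (log2 0.17, SE 0.05, adjusted p = 0.00745). The CPM of Tial1 was 36.1% and 40.5% of that of Tia1 in NMuMG and 78.3% and 69.6% in shPCBP1.

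The opposing actions of Muscleblind and CELF proteins on exons are best known from heart and skeletal muscle. Of 6 tested, 3 were higher and 3 lower (42.1% and 38.0% of all genes). Celf1 (CUGBP1) fell from 95.8 and 92.3 CPM to 63.1 and 65.0 CPM (log2 -0.55, SE 0.03, adjusted p = 1.65e-08), and Celf2 rose from 18.1 and 18.3 CPM to 26.4 and 26.2 CPM (log2 0.53, SE 0.04, adjusted p = 4.75e-07). Celf2 CPM was 18.9% and 19.8% of that of Celf1 in NMuMG and 41.8% and 40.2% in shPCBP1. Celf5 was low throughout, at 0.821 and 0.849 CPM in NMuMG and 1.65 and 1.29 CPM in shPCBP1 (log2 0.74, SE 0.16, adjusted p = 0.00142). Mbnl2 fell from 49.9 and 51.6 CPM to 36.1 and 37.9 CPM (log2 -0.45, SE 0.04, adjusted p = 4.5e-07). Mbnl1 fell slightly, from 80.3 and 78.7 CPM to 73.3 and 74.6 CPM (log2 -0.10, SE 0.03, adjusted p = 0.00424), and Mbnl3 rose (log2 0.51, adjusted p = 0.000881). Celf3 and Celf4 were below the filter, with 24 and 17 reads of Celf3 in NMuMG against 8 and 12 in shPCBP1 and 30 and 25 reads of Celf4 against 12 and 12.

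Of the regulators tied to epithelial and mesenchymal splicing, Esrp2 was lower and Rbfox2 higher in shPCBP1, while Mbnl1 and Mbnl2 were lower, Mbnl3 was higher and Qk did not pass the test (values above). Esrp2, an epithelial splicing regulator, fell from 35.1 and 37.8 CPM to 25.1 and 26.7 CPM (log2 -0.49, SE 0.05, adjusted p = 2.12e-06). Rbfox2, which regulates many of the same exons in mesenchymal cells, rose from 83.7 and 87.1 CPM to 101 and 99.5 CPM (log2 0.23, SE 0.03, adjusted p = 1.48e-05). The groups did not overlap for Esrp2 or Rbfox2. The PTB proteins repress exons flanked by pyrimidine tracts, and their members differed in direction. Ptbp1 rose from 284 and 285 CPM to 309 and 308 CPM (log2 0.12, SE 0.02, adjusted p = 0.000269), Ptbp2, the neuronal paralogue, fell from 14.4 and 14.1 CPM to 11.6 and 11.2 CPM (log2 -0.32, SE 0.06, adjusted p = 0.000359), and Ptbp3 fell (log2 -0.30, adjusted p = 6.44e-07). Beside these changes, 7 of 8 epithelial marker genes tested were lower and 1 was higher, and all 9 mesenchymal marker genes tested were higher. Of all genes, 38.0% were lower and 42.1% higher. Over the 11 epithelial markers in the table, of 15 listed, the summed level was 3573 to 3634 CPM in NMuMG and 3071 to 3131 CPM in shPCBP1. Over the 12 mesenchymal markers in the table, of 14 listed, it was 598.5 to 617.2 CPM and 1639 to 1668 CPM, with Twist1 at the lowest listed value in NMuMG. Their part in the levels of the splicing regulators was not tested.

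Other genes of the splicing machinery were counted from lists set by function, to be read beside the 42.1% of all genes that rose and the 38.0% that fell. Of 44 other alternative splicing regulators tested, 14 rose and 24 fell. Besides Pcbp1 itself (log2 -4.39), the largest falls were those of Msi2 (log2 -1.11) and Rbmx (log2 -1.05), and the largest rises those of Pcbp4 (log2 0.71) and Ybx3 (log2 0.63). Of 11 SR protein kinases and nuclear importers, which set the phosphorylation and location of SR proteins, 2 rose and 8 fell, led by Tnpo2 (log2 0.84) and by the kinases Clk2 (log2 -1.06) and Clk1 (log2 -0.82). Of 42 core spliceosome genes, 21 rose and 4 fell, with a median log2 change of 0.15 against 0.02 over all genes. Of 24 genes whose transcripts are known ESRP or RBFOX2 splicing targets, 9 rose and 11 fell in total level, among them Map3k7 (log2 1.00) and Plekha1 (log2 -1.59). Celf1, Srsf1 and Hnrnpu were placed on patch scaffolds in the table of the second dataset, where reads can be divided between copies of a locus, so their values are uncertain. Of the 43 members called, 41 remained when these genes were left out.

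Levels were also divided by the merged length of all annotated exons of each gene. This length can exceed that of the transcript present, so the order between genes is approximate. Hnrnpf stood highest among the members in NMuMG, with a mean of 141 CPM per kb. Srsf2 (85.3), Hnrnpab (63.3) and Hnrnpa1 (60.7) followed, all in CPM per kb. In the shPCBP1 lines of the first dataset the leading members were Hnrnpab (262), Srsf2 (209), Srsf1 (103), Hnrnpa0 (98.9) and Hnrnpa2b1 (94.2), in the same unit. The lists are given side by side only, since the datasets were normalized apart.

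The first dataset asked what loss of FAM3C or LIFR does to shPCBP1 cells. All 55 members passed the filter. In FAM3C KO no member passed an adjusted p of 0.07 (0 of 55), against 0.309% of all 12621 genes. At an unadjusted p under 0.05 there were 3 members (5.45%), against 10.2% of all genes. For 10 members (18.2%, 7 higher and 3 lower) all 3 clones lay outside the range of the 4 shPCBP1 lines, against 22.7% of all genes (10.1% higher and 12.5% lower). The 3 members at an unadjusted p under 0.05 were Srsf7, Elavl4 and Hnrnpll. Together with Ptbp2, the member without overlap that differed most, they are named here after their values were seen. Elavl4 (HuD, a neuronal Hu protein) was low throughout, at 0.320, 0.121, 0.240 and 0.561 CPM in CT clones 1 to 3 and the unaltered line and 0.797, 1.08 and 0.423 CPM in FAM3C KO clones 1 to 3 (log2 1.11, SE 0.45, adjusted p = 0.424, over the alternative fits 0.203 to 0.853), and the groups overlapped. Srsf7, an SR protein that carries a zinc knuckle, was at 123, 111 and 144 CPM in CT clones 1 to 3, 125 CPM in the unaltered line and 164, 177 and 174 CPM in FAM3C KO clones 1 to 3 (log2 0.46, SE 0.14, adjusted p = 0.26). Ptbp2 was at 45.5, 40.0, 52.7 and 45.7 CPM in the shPCBP1 lines in the same order and 62.2, 61.3 and 68.6 CPM in FAM3C KO (log2 0.48, SE 0.23, adjusted p = 0.522). Hnrnpll, a regulator of CD45 splicing in lymphocytes, was at 87.3, 73.6, 96.4 and 85.1 CPM against 109, 116 and 112 CPM (log2 0.40, adjusted p = 0.479). Every FAM3C KO clone lay above every shPCBP1 line for Srsf7, Ptbp2 and Hnrnpll. The calls of these 3 depended on the LIFR KO clones in the fit, since they passed with FAM3C KO and shPCBP1 fitted alone (8.29% of all genes). Over the alternative fits the adjusted p ranged from 0.0227 to 0.609 for Srsf7, from 0.0243 to 0.868 for Ptbp2 and from 0.0382 to 0.839 for Hnrnpll.

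**Figure D3:**
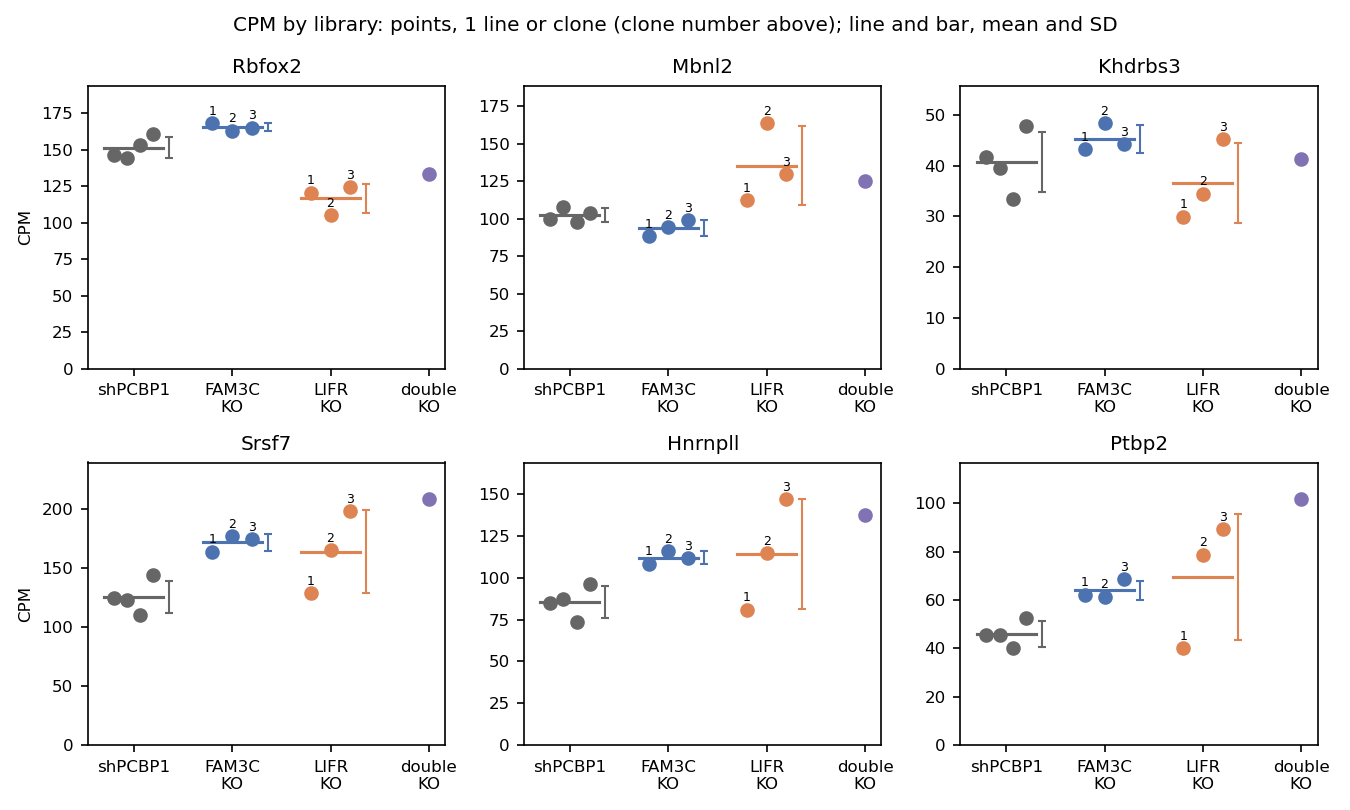
CPM of Rbfox2, Mbnl2, Khdrbs3, Srsf7, Hnrnpll and Ptbp2 in each library of the first dataset, with the mean and SD of each group that has replicates and a separate linear axis for each gene. Srsf7, Hnrnpll and Ptbp2 are higher in all FAM3C KO clones than in all shPCBP1 lines, Rbfox2 is lower in all LIFR KO clones, and LIFR KO clone 1 lies near the shPCBP1 lines for Srsf7, Hnrnpll and Ptbp2.

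The other members without overlap in FAM3C KO showed small differences, from log2 0.10 to 0.18 for Tra2a, Rbfox2, Hnrnpa0 and Khdrbs1 and from -0.19 to -0.05 for Hnrnpul2, Hnrnpa3 and Ptbp1. Esrp2 was at 46.0, 53.8, 43.2 and 40.8 CPM in the shPCBP1 lines and 42.9, 35.9 and 39.2 CPM in FAM3C KO, which overlapped. Khdrbs3, the member with the largest change after PCBP1 knockdown, was at 39.6, 33.5, 47.9 and 41.7 CPM in the shPCBP1 lines and 43.3, 48.5 and 44.2 CPM in FAM3C KO. Elavl2 was at 10.4, 7.96, 6.56 and 4.68 CPM against 5.49, 6.44 and 5.46 CPM. Neither gene separated the groups, and no gene of the lists of other splicing regulators, kinases, core spliceosome or splicing targets passed the test in FAM3C KO.

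Srsf7 and Hnrnpll lie next to each other on the distal part of chromosome 17, at chr17:80200080-80207307 and chr17:80029487-80062334 (GRCm38, GENCODE M21, both on the minus strand), 137.7 kb apart. The region was examined after their values were seen. All 8 tested neighbours within 0.5 Mb of Srsf7 (Hnrnpll among them) were higher in FAM3C KO, 6 of them without overlap, with a median log2 difference of 0.54. Over the 99 other genes of chromosome 17 beyond 60 Mb, the median log2 difference from the mean of the shPCBP1 lines was 0.43, 0.39 and 0.48 in FAM3C KO clones 1 to 3, against -0.01, -0.03 and -0.01 over the rest of the genome. In these clones 74, 74 and 77 of the 99 genes lay above all shPCBP1 lines, against 24.7%, 24.5% and 24.8% of all genes. The median of the region was also above that of the rest in LIFR KO clone 3 (0.45) and the double KO (0.41), and was -0.12 and -0.10 in LIFR KO clones 1 and 2. The 526 genes of chromosome 17 up to 60 Mb had medians of -0.07, -0.13 and -0.09 in the FAM3C KO clones. The levels of Srsf7 and Hnrnpll in these clones thus moved with those of most genes around them.

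**Figure D4:**
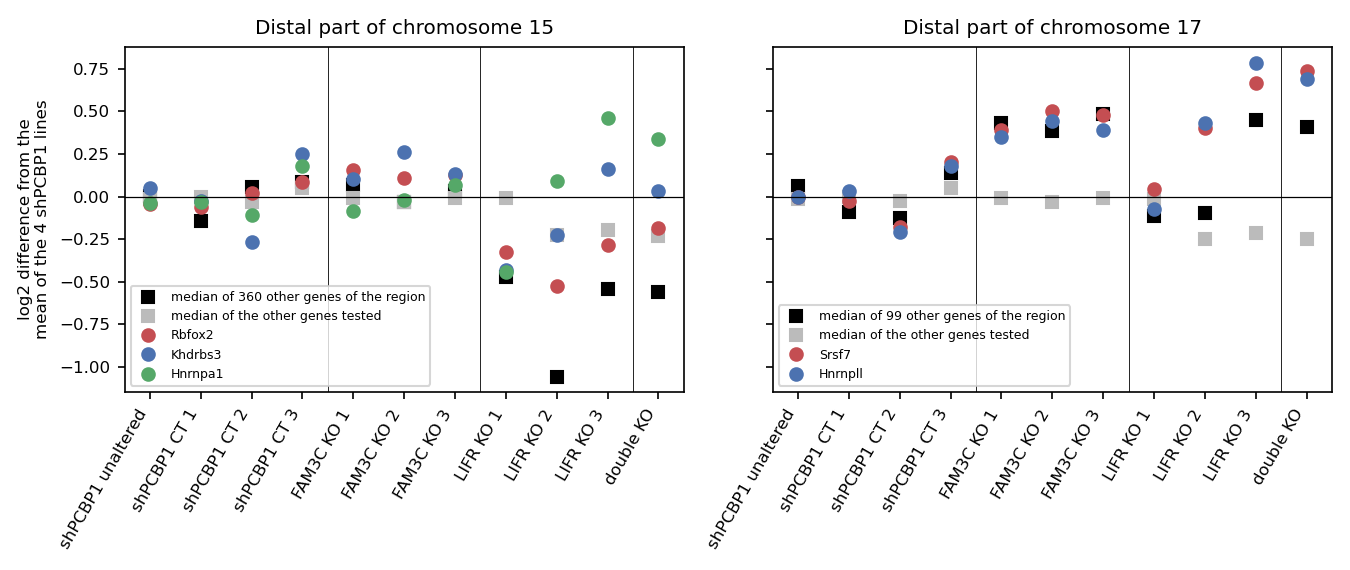
Log2 difference of each library from the mean of the 4 shPCBP1 lines, for Rbfox2, Khdrbs3 and Hnrnpa1 beside the median of the other genes on the distal part of chromosome 15, and for Srsf7 and Hnrnpll beside that on the distal part of chromosome 17, with the median of the rest of the genome. The distal part of chromosome 17 is higher in all FAM3C KO clones, LIFR KO clone 3 and the double KO, and that of chromosome 15 is lower in all LIFR KO clones and the double KO.

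In LIFR KO, Rbfox2 was the member that passed the test, 1 of 55 against 6.47% of all genes (5.55% lower). At an unadjusted p under 0.05 there were 21 members (38.2%), against 35.7% of all genes. Rbfox2 was at 145, 154, 161 and 146 CPM in CT clones 1 to 3 and the unaltered line, with 120.5, 105 and 124 CPM after LIFR KO (clones 1 to 3). Its mean was 151 ± 7.28 CPM (SD, n = 4) for the shPCBP1 lines and 117 ± 10.1 CPM (SD, n = 3) after LIFR KO (log2 -0.38, SE 0.09, adjusted p = 0.0504). All 3 clones lay below all shPCBP1 lines, and the double KO stood at 133 CPM, also below them. In the double KO, however, 53.8% of all genes lay below all shPCBP1 lines. Rbfox2 differed there by log2 -0.18 from the shPCBP1 mean, against a median of -0.23 over genes outside the distal part of chromosome 15. The call was held by 6 of 19 alternative fits, over which the adjusted p ranged from 0.00231 to 0.584. The median log2 difference over all genes was -0.16 in LIFR KO, and rescaling by the median ratio moved it to 0, a shift of 0.16. With this rescaling the difference of Rbfox2 was -0.21 with an adjusted p of 0.112, and with a correction for the GC content of the transcripts (51.5% in Rbfox2) it was -0.09 with an adjusted p of 0.58. The groups did not overlap for 4 other members (17.2% of all genes had no overlap), which did not pass the test. Hnrnpd, Mbnl2 and Hnrnpu were higher and Celf5 lower, with adjusted p from 0.078 to 0.134.

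Rbfox2 lies at chr15:77078990-77307004 (minus strand), on the distal part of chromosome 15, where most genes were lower in the LIFR KO clones. Of its 24 tested neighbours within 0.5 Mb, 19 were lower without overlap, with a median log2 difference of -0.76. Over the 360 other genes of chromosome 15 beyond 60 Mb, the median difference was -0.47, -1.06 and -0.54 in LIFR KO clones 1 to 3 and -0.56 in the double KO, against -0.01, -0.23, -0.20 and -0.23 over the rest of the genome. Below all shPCBP1 lines were 312, 331, 264 and 270 of these genes. The 131 genes up to 60 Mb of the same chromosome, the part on which Lifr lies, had medians of 0.07 to 0.18 in the same libraries. Khdrbs3 (chr15:68928420-69101211, plus strand) and Hnrnpa1 (chr15:103240432-103246692, plus strand) lie in the same distal region. In LIFR KO clones 1 to 3, Khdrbs3 was at 29.9, 34.5 and 45.2 CPM, which overlapped with the shPCBP1 lines (33.5 to 47.9 CPM). Hnrnpa1 was at 189.5, 274 and 355 CPM against 239 to 292 CPM, thus below the shPCBP1 lines in clone 1 and above them in clone 3, while 7 of its 9 tested neighbours were lower without overlap. The part of this regional shift in the level of Rbfox2 was not tested.

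The LIFR KO clones differed from each other more than any other group of the first dataset. In clone 1, 8 of 55 members lay above all 4 shPCBP1 lines and 11 below, close to the shares of all genes (21.8% above and 28.0% below). In clone 2 there were 32 above and 17 below (26.0% and 53.5% of all genes), in clone 3 there were 32 and 15 (27.9% and 52.0%), and in the double KO 29 and 16 (26.0% and 53.8%). The FAM3C KO clones had 9, 18 and 15 members above (24.7%, 24.5% and 24.8% of all genes) and 7, 11 and 9 below (25.9%, 34.3% and 27.2%). In LIFR KO clones 2 and 3 and the double KO, the difference followed the GC content of the transcripts. The Spearman correlation with GC content over the 55 members, a description across genes of 1 library, was -0.68, -0.81 and -0.75 in these 3 libraries and 0.25 in clone 1. The lines of shPCBP1 and FAM3C KO had values from -0.53 to 0.37. Over all genes it was -0.76, -0.74 and -0.70, and 0.07 in clone 1. The 32 members with under 45% GC had a median log2 difference of 0.51, 0.50 and 0.41 in these 3 libraries and -0.03 in clone 1, and the 11 members with at least 50% GC had -0.49, -0.58 and -0.49, and 0.03 in clone 1. For all lines of shPCBP1 and FAM3C KO these medians fell within -0.14 to 0.09. Members had GC contents of 34.2% to 56.3% (median 43.6%), lower than the median of 49.7% over all genes. The same 3 libraries held more mitochondrial mRNA, 5.09%, 5.21% and 6.04% of CPM, against 2.47% to 3.07% in all others. The part of the mitochondrial share in this pattern was not tested.

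**Figure D5:**
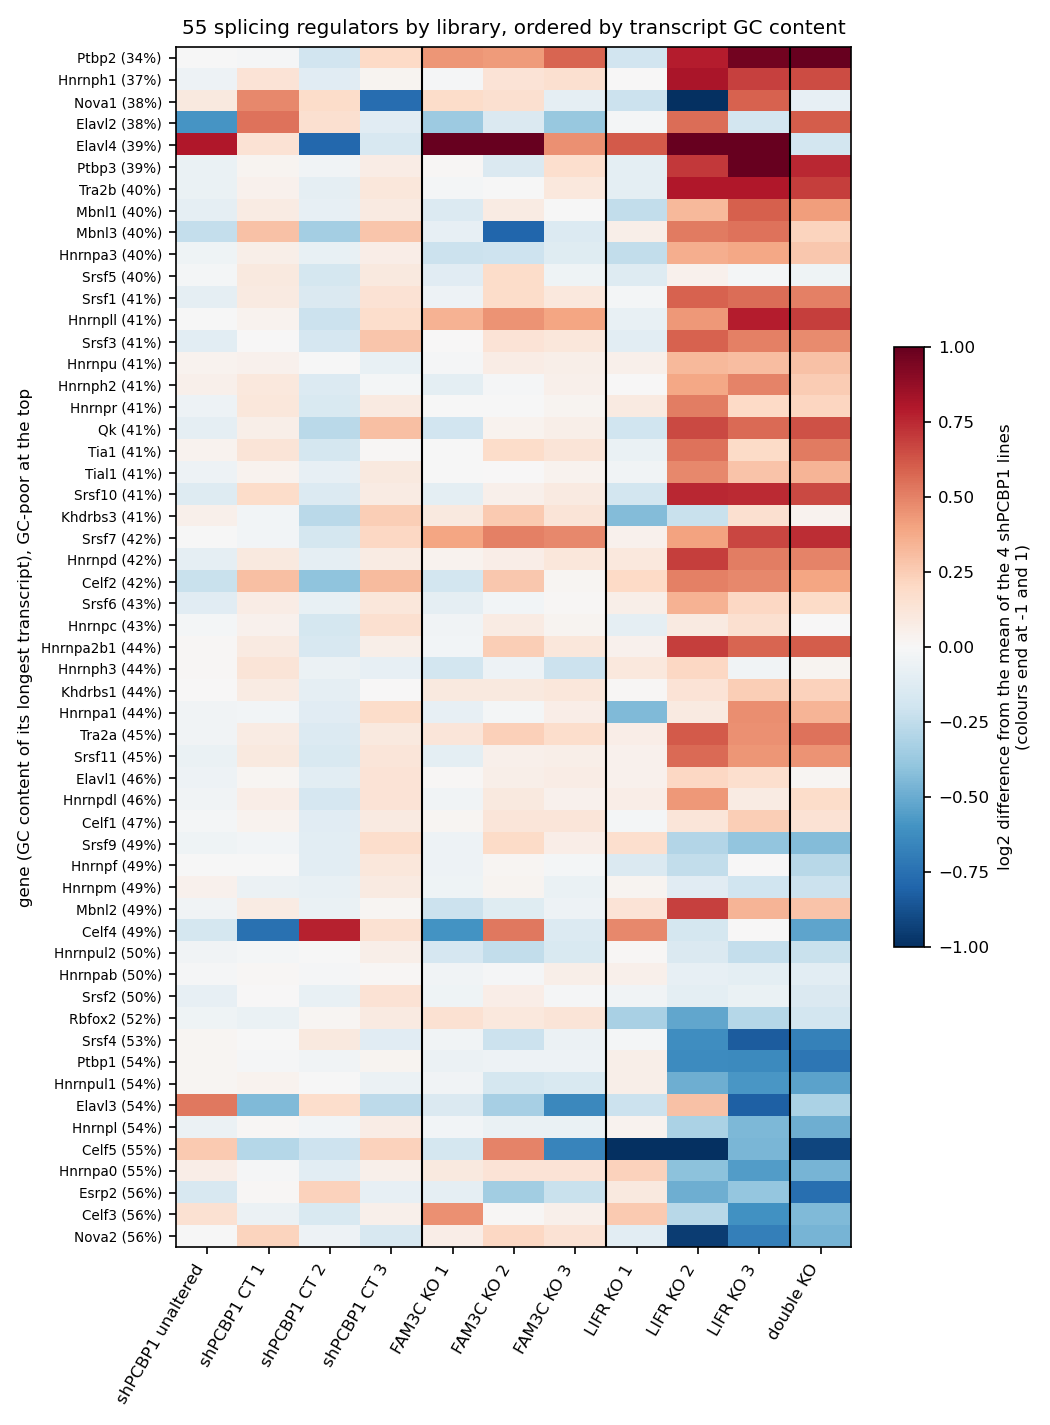
Log2 difference of each of the 11 libraries of the first dataset from the mean of the 4 shPCBP1 lines, for 55 members ordered by the GC content of their transcripts, with colours ending at 1 in both directions. In LIFR KO clones 2 and 3 and the double KO the members of low GC content are higher and those of high GC content lower, and the differences in the other libraries are smaller.

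Members far apart in GC content illustrate the size of the difference, although not every member followed GC content. Ptbp2, which has the lowest GC content of the members (34.2%), stood in LIFR KO clones 1 to 3 at 40.0, 78.8 and 89.4 CPM, against 40.0 to 52.7 CPM in the shPCBP1 lines. Ptbp1 (53.7% GC) was at 463, 287 and 285 CPM against 432 to 452 CPM. As a share of Ptbp1 CPM, Ptbp2 was thus 8.62% in clone 1, 27.5% in clone 2, 31.3% in clone 3 and 37.7% in the double KO, against 9.25% to 11.6% in the shPCBP1 lines and 14.3% to 16.0% in FAM3C KO. Srsf1 (40.6% GC) was at 579, 881 and 862 CPM against 530 to 647 CPM, and Hnrnpa2b1 (43.6% GC) at 636, 1001 and 926 CPM against 554 to 659 CPM. Clone 1 lay within or near the range of the shPCBP1 lines for all of these genes, and clones 2 and 3 outside it. Qk was at 166, 301 and 283 CPM against 158 to 235 CPM, and Esrp2 (56.0% GC) was at 48.8, 32.6 and 34.9 CPM against 40.8 to 53.8 CPM. Some members of low GC content did not follow the pattern. In clones 2 and 3, Srsf5 (40.1% GC) had log2 differences of 0.04 and -0.02, and Nova1 (38.5% GC) had -1.11 and 0.59. Without clone 1, 37 of 55 members passed the test in LIFR KO (26 higher and 11 lower), as did 57.4% of all genes. With clone 1 as the only LIFR KO library no member did (0 of 55, and 2.22% of all genes). That fit takes its spread from the other groups and so cannot be set against the count without clone 1. With a correction for GC content no member passed (0 of 55, and 0.309% of all genes). At an unadjusted p under 0.05 there were 15 members with this correction, and the share of all genes at that threshold was not counted. The summed level of the members was 10368 CPM in clone 1, 12593 in clone 2, 12448 in clone 3 and 12113 in the double KO, against 9829 to 11060 in the shPCBP1 lines.

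Of the other splicing genes, 1 of 46 other regulators was higher in LIFR KO (Rbm25, log2 0.58) and 4 were lower (among them Puf60, log2 -0.78, Cirbp, log2 -0.71, and Zfp36l2, log2 -0.66). Of 12 kinases and importers, Prpf4b was higher (log2 0.42), and none of the 43 core spliceosome genes passed. Of 24 ESRP or RBFOX2 target genes, Scrib (log2 -0.92) and Exoc7 (log2 -0.64) were lower. Over all genes, 0.911% were higher and 5.55% lower. The part of the regional shift of chromosome 15 in the genes of these lists was not tested. Summed over 11 epithelial markers in the table, the level was 2906 to 3805 CPM in shPCBP1, 2319 to 3438 CPM in FAM3C KO and 1732 to 2752 CPM in LIFR KO. Over 13 mesenchymal markers it was 2140 to 2396 CPM, 2390 to 2584 CPM and 1636 to 2228 CPM. Of 9 epithelial markers tested in LIFR KO, Krt18 alone passed, with a mean of 596 against 958 CPM (log2 -0.72). The median log2 difference of the 9 was -0.05, and none of 12 mesenchymal markers tested passed. The part of the regional shift of chromosome 15 in these sums, and of the markers in the levels of the regulators, was not tested.

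The difference between the knockouts was tested directly. FAM3C KO and LIFR KO differed in 2 of 55 members, Rbfox2 and Mbnl2, against 8.28% of all genes. At an unadjusted p under 0.05 there were 12 members (21.8%), against 29.3% of all genes, and the clones did not overlap for 7 members (12.7%), against 22.8%. Rbfox2 was at 168, 163 and 165 CPM in FAM3C KO clones 1 to 3, above all LIFR KO clones (log2 0.51, SE 0.09, adjusted p = 0.0366; over the alternative fits 0.000873 to 0.201, called in 11 of 19). Mbnl2 was at 88.1, 94.1 and 98.9 CPM in FAM3C KO, 112, 164 and 129 CPM in LIFR KO and 97.7 to 108 CPM in the shPCBP1 lines. All LIFR KO clones lay above all FAM3C KO clones (log2 FAM3C KO minus LIFR KO -0.51, SE 0.13, adjusted p = 0.0531; over the alternative fits 0.00104 to 0.216, called in 6 of 19). In LIFR KO against shPCBP1, Mbnl2 missed the threshold (log2 0.39, adjusted p = 0.0824). Both knockouts were set against the same 4 shPCBP1 lines. Without LIFR KO clone 1 the count was 30 members (9 higher and 21 lower in FAM3C KO), with 52.9% of all genes. Of 46 other regulators, 6 were higher in FAM3C KO than in LIFR KO and none lower (6.83% and 1.45% of all genes). Khsrp (log2 0.92), Cirbp (log2 0.87) and Puf60 (log2 0.79) led them, and the part of the regional shifts in these genes was not tested. None of the 43 core spliceosome genes or 12 kinases and importers passed.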

How the data were processed

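RNA-Seq of NMuMG-derived cell lines was examined in 15 samples of 2 datasets. Per the labels and the study's methods, total RNA was depleted of rRNA, and directional libraries were sequenced as paired ends. The submitters' processing notes name Partek, Bowtie2, DESeq and GRCm38 (mm10). The authors deposited normalized CPM per gene and sample, and in the second dataset also the mean CPM of each group and a ratio (fold change) of the means with test results, which were not used. In the second dataset 0.0001 CPM stands for no reads. In the first, the lowest value of a library was taken as the size of a single read, and whether it stands for no reads was not settled. From the steps between low values, 16031859 to 46901675 reads (first dataset) and 53032111 to 56496537 reads (second) were implied, with 85.0% to 86.7% and 89.8% to 90.5% of values within 0.05 of a whole read, too few for a count test. Floors of 3 reads and 95% intervals cover counting error only.

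Values were transformed to log2(CPM + 0.1), those averaging 0.5 CPM or more were kept (12621 and 11384), and group means were fitted over all of them (limma 3.58.1, R 4.3.3, mean-variance trend). Each dataset was fitted apart, and the first with its 3 replicated groups together. The single double KO line stayed out of the fits. Adjusted p (Benjamini-Hochberg over all genes) under 0.07, the threshold of the study, was a call. In simulated data with 200 changed genes, 193 (PCBP1 knockdown), 159 (FAM3C KO) and 167 (LIFR KO) were found, with 11, 12 and 10 unchanged genes also called. The planted changes were larger than the differences of most members, and the noise was independent between genes. The shares found therefore do not hold for smaller differences or for shifts common to many genes.

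Members were taken by symbol. Named were 12 fixed genes (Esrp1, Esrp2, Rbfox2, Qk, Ptbp1, Ptbp2, Mbnl1, Celf1, Khdrbs1, Elavl1, Srsf1 and Hnrnpa1), the called member with the largest change in each family, and up to 8 called members in each direction. Genes outside this rule are named because their values were seen, except where they belong to the counted lists. In the comparisons of the first dataset, values are not given for every fixed gene. The members and lists were chosen with earlier results of these data known. One hnRNP gene is not reported here. GC content (of the longest transcript) and lengths (of the merged exons) came from GENCODE M21 (GRCm38). By gene ID, 13870 of 13893 and 14821 of 15023 genes were matched to it. Lengths of members were looked up by symbol. Celf1, Hnrnpu and Srsf1 of the second dataset therefore took the lengths of other gene IDs with the same symbol. Gene starts in the first table equalled those of M21 for only 302 genes, so coordinates are those of M21. Promoters came from RefSeq, with 48 members matched. Alternatives were median-ratio rescaling, a pseudocount of 1 CPM, no filter or one of 2 CPM, an adjusted p of 0.05, a fold of 1.5, the 2 groups alone, the replicate number as a block, a GC correction (loess, span 0.3), LIFR KO clone 1 alone and leaving out each library.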

Additional observations from a re-analysis of the deposited data

Results flagged for a closer look

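Rbfox2 and Mbnl2 are flagged because the knockouts differed in them by a direct test. That test called 2 of 55 members, a lower share than the 8.28% of all genes. Rbfox2 was 0.51 higher on the log2 scale in FAM3C KO than in LIFR KO, and Mbnl2 differed by -0.51 in the same direction of subtraction. Both passed an adjusted p of 0.07 in limma, and both calls were lost when a correction for GC content was applied (adjusted p = 0.132 and 0.087). Both were also lost with the 2 groups alone, with the replicate block, or with any FAM3C KO clone left out. Rbfox2 lies on the distal part of chromosome 15, where most genes were lower in the LIFR KO clones. The part of that shift in its level was not tested.

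The double KO line took no part in any comparison of groups. In it, Ptbp2 stood at 101.6 CPM and Ptbp3 at 309.8 CPM, each at least 1.5 times the highest shPCBP1 line (52.7 and 193 CPM). LIFR KO clones 2 and 3, which resemble the double KO in their relation to GC content and in their share of mitochondrial mRNA, also had high values of Ptbp2 (78.8 and 89.4 CPM) and Ptbp3 (300.3 and 367 CPM), and LIFR KO clone 1 did not (40.0 and 172 CPM). Both transcripts are low in GC content. A screen for a line far from the others of its group flagged no shPCBP1 line in the 55 members. With 4 lines such a screen cannot show that they agree. Nova1, for example, was at 7.05 CPM in CT clone 3 and 12.8 to 16.8 CPM in the other shPCBP1 lines.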

How the results depend on the processing

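After PCBP1 knockdown the count of 43 members (80.1% of all genes) was 40 with a filter of 2 CPM (81.1%) and 6 with a fold of at least 1.5 (31.1%). It was 41 without the members on patch scaffolds (an alternative chosen after seeing the data), for which the share of all genes was not counted. Leaving out each sample in turn left 1 group with 1 sample. The median size of the log2 change was then 0.27 to 0.28 over the members and 0.36 to 0.37 over all genes. In FAM3C KO the count of 0 (0.309% of all genes) became 3 with the 2 groups alone (8.29%) and 2 with the GC correction (1.89%). With LIFR KO clones 2 and 3 out of the fit (chosen after seeing the data), the median log2 difference of the members stayed at 0.01. Leaving out each library gave 0 to 2 (0.0238% to 2.84% of all genes), with 2 without LIFR KO clone 1 (1.93%). In LIFR KO the count of 1 (6.47% of all genes) became 0 with median-ratio rescaling (3.79%), the replicate block (0.0792%) and the 2 groups alone (0.278%). It was also 0 with the GC correction (0.309%), the block with the GC correction (0.0238%) and a fold of 1.5 (5.17%). At an adjusted p under 0.05 it was 0, and the share of all genes was not counted. With clone 1 only, the median log2 difference of the members was 0.002. Leaving out each library gave 0 to 37, with 37 without LIFR KO clone 1 (57.4% of all genes) and 2 without clone 3 (5.72%). It gave 0 without clone 2, each shPCBP1 line in turn, or FAM3C KO clone 1 or 3 (0.0397% to 1.26%). Between the knockouts the count of 2 (8.28% of all genes) became 0 with the replicate block (0%), the 2 groups alone (0%) and the GC correction (0.555%). It was also 0 with the block and the GC correction together (0%) and with a fold of 1.5 (6.85%). At an adjusted p under 0.05 it was 1, and the share of all genes was not counted. Leaving out each library gave 0 to 30, with 30 without LIFR KO clone 1 (52.9% of all genes) and 3 without clone 3 (11.6%). It gave 1 without each shPCBP1 line in turn (2.91% to 4.20%). Without LIFR KO clone 2 or each FAM3C KO clone in turn it gave 0 (0.00793% to 0.799%). With clone 1 only, a lone library assumed to vary like the other groups, the differences of Hnrnpa1 and Ptbp2 were 0.43 and 0.68 (log2, higher in FAM3C KO), against values near 0 with all clones (-0.05 and -0.04). Only the members named by the rule given above were followed singly over all alternatives, and the other members are not in these counts. Of their values, 19 of the PCBP1 knockdown, 15 of LIFR KO and 24 between the knockouts fell short of the threshold that the reported value passed. Those that newly passed it were 4 of FAM3C KO, 8 of LIFR KO and 5 between the knockouts. The cause of these moves was not tested. With the replicate number as a block, 43 members were called after PCBP1 knockdown (81.1% of all genes). In each comparison of the first dataset 0 were called (0% to 0.119% of all genes). However, deviations of same-numbered libraries correlated at only -0.18 to 0.15 (first dataset) and 0.05 (second), so the numbers do not pair the samples. Depth limits Khdrbs3, Elavl2 and the members below the filter in the second dataset, and the number of clones limits the first.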
